A study of Arabidopsis thaliana with 20 samples.

Results

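The promoters described here belong to long noncoding RNA (lncRNA) genes that stand apart from protein-coding promoters. They were chosen by annotation alone: a nuclear gene of biotype lncRNA in the TAIR10.1 annotation was a member if no protein-coding transcription start site (TSS) lay within 1 kb of its own TSS. Of 3480 nuclear lncRNA genes, 1988 met the rule and 1492 did not, among 37899 nuclear genes in all, of which 27444 are protein-coding. The study profiled GFP-tagged BCL7A, BCL7B and BRM by chromatin immunoprecipitation sequencing (ChIP-seq) with an anti-GFP antibody in 14-day-old Arabidopsis seedlings kept in short days, and peak lists from 12 libraries, 2 for each of 6 groups, were analysed. BCL7A was profiled in pBCL7A:BCL7A-GFP bcl7a brm-1 seedlings (called BCL7A brm-1) against pBCL7A:BCL7A-GFP bcl7a seedlings (BCL7A). BCL7B was profiled in pBCL7B:BCL7B-GFP bcl7b brm-1 seedlings (BCL7B brm-1) against pBCL7B:BCL7B-GFP bcl7b seedlings (BCL7B). BRM was profiled in pBRM:BRM-GFP brm-1 bcl7a bcl7b seedlings (BRM bcl7ab) against pBRM:BRM-GFP brm-1 seedlings (BRM). Every transgene was driven by the native promoter of its gene in the mutant of that gene. The seedlings were whole, so the lists average over all cell types, and fewer cells carrying a protein cannot be told apart from less of it per cell. No list from seedlings without GFP was analysed here.

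SWI/SNF complexes use the energy of ATP to slide or evict nucleosomes. BRM supplies the ATPase of the BRM-associated (BAS) class of these complexes, and BCL7A and BCL7B are accessory subunits. lncRNA genes make transcripts that are not translated; in plants many start within or beside other genes and are transcribed from the opposite strand. Their promoters, like those of protein-coding genes, need accessible DNA to be transcribed.

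The DNA under the member summits is shown first, since the motif counts and the mutant comparisons refer back to it. A summit is the base of highest pileup in a peak, of which each peak has 1. Each window holds 201 bases of the TAIR10.1 assembly centred on a summit and written 5′ to 3′ on the strand of the lncRNA gene, and capitals mark matches on either strand to 5 motifs searched for. These were the TATA box with the letters TATAAA, the GA repeat with the letters GAGAGA, the telo box with the letters AAACCCTA, the site II element with the letters TGGGCC, and the G-box, a target of bZIP and bHLH factors, with the letters CACGTG. The first 3 windows are the summits of BCL7A replicate 1 at the most strongly enriched members, AT1G05863 (chr1:8598594-8598794, plus strand), AT2G09630 (chr2:18725694-18725894, minus strand) and AT5G09170 (chr5:25436934-25437134, plus strand). The next is that of BCL7A replicate 1 at AT5G03755 (chr5:8359853-8360053, plus strand), which had summits in the BCL7A and BCL7B groups and none in the BRM group, followed by AT5G03985 (chr5:8864001-8864201, minus strand), where neither BCL7 protein had a peak in brm-1. The last is the summit of BRM replicate 1 at AT2G06605 (chr2:7053883-7054083, minus strand), which had BRM summits without a BCL7 summit.
AT1G05863: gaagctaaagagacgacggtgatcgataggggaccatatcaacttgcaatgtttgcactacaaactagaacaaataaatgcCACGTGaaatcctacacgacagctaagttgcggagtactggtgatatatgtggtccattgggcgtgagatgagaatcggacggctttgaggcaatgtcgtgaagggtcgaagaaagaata
AT2G09630: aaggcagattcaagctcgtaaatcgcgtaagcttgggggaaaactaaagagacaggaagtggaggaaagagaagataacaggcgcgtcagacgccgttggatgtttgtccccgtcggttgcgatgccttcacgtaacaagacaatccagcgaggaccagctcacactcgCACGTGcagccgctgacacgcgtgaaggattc
AT5G09170: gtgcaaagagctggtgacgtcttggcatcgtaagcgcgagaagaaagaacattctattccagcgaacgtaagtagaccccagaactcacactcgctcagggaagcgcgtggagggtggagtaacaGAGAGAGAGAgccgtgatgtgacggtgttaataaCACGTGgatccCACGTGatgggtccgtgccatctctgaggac
AT5G03755: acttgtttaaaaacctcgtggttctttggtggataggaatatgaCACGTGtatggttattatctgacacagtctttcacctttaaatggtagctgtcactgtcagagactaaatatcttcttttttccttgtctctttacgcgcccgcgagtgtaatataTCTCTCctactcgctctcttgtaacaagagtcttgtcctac
AT5G03985: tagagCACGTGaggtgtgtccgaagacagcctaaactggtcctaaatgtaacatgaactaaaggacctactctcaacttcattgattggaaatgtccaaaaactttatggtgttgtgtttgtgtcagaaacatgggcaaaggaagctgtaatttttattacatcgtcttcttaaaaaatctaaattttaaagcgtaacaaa
AT2G06605: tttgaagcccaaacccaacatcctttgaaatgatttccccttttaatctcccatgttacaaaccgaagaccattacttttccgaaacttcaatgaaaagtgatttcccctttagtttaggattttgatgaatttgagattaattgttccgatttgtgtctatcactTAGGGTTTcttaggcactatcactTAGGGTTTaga
A G-box stood in the windows of AT1G05863, AT2G09630, AT5G09170, AT5G03755 and AT5G03985, and AT2G06605 held telo boxes. The windows shown were picked for the results they go with and are not a sample: of the 29 windows of named members, 10 held a G-box, and AT3G06615 and AT3G09775, also among the 6 strongest, held none. AT5G04785, which like AT2G06605 had BRM summits without a BCL7 summit, held a G-box.

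The members were short and sparsely annotated. Their median length was 351 bp (quartiles 257 and 529 bp), against 2078 bp for protein-coding genes, and 1641 of 1988 had 1 exon. None carried a gene symbol, so they are given by locus. By position, 1261 members (63.4%) started outside every protein-coding gene and more than 500 bp from any protein-coding 3′ end, 211 (10.6%) started outside but within 500 bp of such an end, 486 (24.4%) started inside a protein-coding gene on the opposite strand, and 30 inside a gene on the same strand. An lncRNA gene on the other strand overlapped 369 members, and pairs of this kind can share a peak.

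The lists held 14770 to 18870 nuclear peaks. The 4 BRM lists were cut at a looser limit than the 8 BCL7A and BCL7B lists: the lowest −log10 q was 0.476 to 0.577 in BRM lists, against 2.03 to 2.25 in BCL7A and BCL7B lists, and median peak widths were 799 to 841 bp, against 519 to 542 bp. A q over 0.05 was held by 2.24% to 3.14% of the peaks of a BRM list, and by 4 to 11 of its member summits, and by no peak of a BCL7A or BCL7B list, although peak calling is described with that same limit for all. A difference between BRM and BCL7 proteins therefore cannot be told apart from the processing of the lists. Mutants were compared within 1 protein, and values of BRM and BCL7 proteins set side by side are descriptions under these unequal limits. The background pileup, recovered from the fold enrichment and p-value of each peak, was 15.7 to 30.9 reads per base in the 12 libraries. It averaged 23.4 in BCL7A brm-1 and 20.3 in BCL7A, 22.7 in BCL7B brm-1 and 16.5 in BCL7B, and 28.2 in BRM bcl7ab and 26.9 in BRM. The background stood higher in each mutant group on average, and its part in the results was not tested. The weakest member summit of a library had a pileup of 33.0 to 46.0 reads, and a promoter below that level would not be in the list.

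Between 14.9% and 22.6% of the members had a summit within 500 bp of the TSS, fewer than protein-coding genes in every library. The numbers of members with a summit were 450 and 445 in the BCL7A brm-1 libraries and 416 and 400 in the BCL7A libraries. They were 355 and 379 in the BCL7B brm-1 libraries and 391 and 393 in the BCL7B libraries. BRM had 318 and 299 in the bcl7ab libraries and 305 and 297 in the BRM libraries. Members that lie close together share peaks, and the 450 members of BCL7A brm-1 replicate 1 rested on 410 peaks. The share of members was below that of protein-coding TSSs (36.4% to 48.6%) in 12 of 12 libraries, and the difference averaged −24.6 ± 2.16 percentage points over the 6 groups (SD, n = 6; exact two-sided sign-flip permutation p = 0.0312, the smallest that 6 groups allow). Against the 20809 protein-coding genes that also have no other protein-coding TSS within 1 kb, the difference was −20.7 ± 1.85 points (SD, n = 6; exact permutation p = 0.0312). The genes are the same in all groups, so these p-values bear on the spread between groups only.

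**Figure D1:**
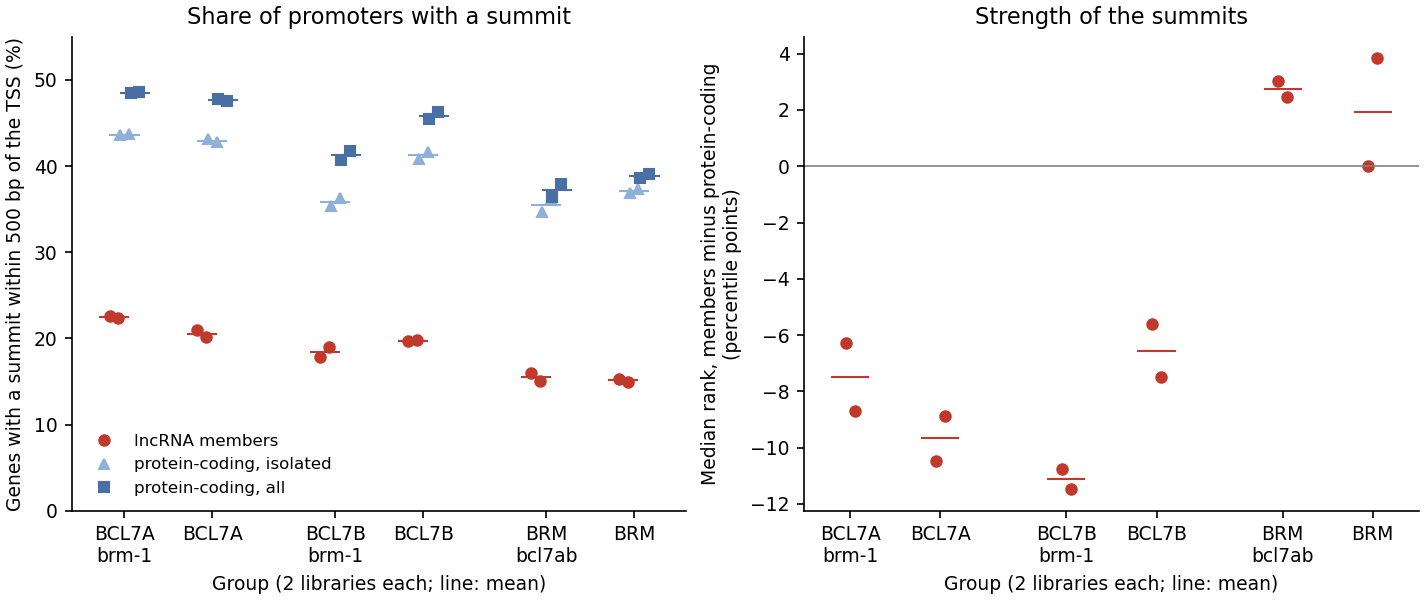
Left, percentage of lncRNA members (circles), isolated protein-coding genes (triangles) and all protein-coding genes (squares) with a summit within 500 bp of the TSS, for the 2 libraries of each group, with lines at the group means. Right, median percentile rank of member summits minus that of protein-coding summits; the members lie at 14.9% to 22.6%, under both protein-coding sets in all 12 libraries, and their summits rank lower in the 8 BCL7A and BCL7B libraries but not in the 4 BRM libraries.

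Calling a promoter bound when both libraries of a group had a summit, 398 members (20.0%) were bound in BCL7A brm-1 and 361 (18.2%) in BCL7A, where 36.7% and 35.8% of all nuclear genes were. For BCL7B, 309 members (15.5%) were bound in brm-1 and 344 (17.3%) without it, where all nuclear genes gave 30.2% and 34.2%. For BRM, 228 members (11.5%) were bound in bcl7ab and 222 (11.2%) in the BRM group, where all nuclear genes gave 24.8% and 26.1%. Each member share lay below that of all genes. Over all libraries, 1294 members (65.1%) had no summit anywhere, against 34.2% of protein-coding genes, and 107 (5.38%) had a summit in all 12, against 16.4% of protein-coding genes. No peak of any library overlapped the 500 bp on either side of the TSS for 1095 members.

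Strength was taken as a percentile rank, in which 100 is the highest fold enrichment of a list, as fold enrichment is not on the same scale between lists. Member summits had median ranks of 45.1 to 50.1 in BCL7A and BCL7B libraries and of 51.6 to 54.7 in BRM libraries. Relative to protein-coding summits the difference was −11.5 to −5.62 percentile points in the 8 BCL7A and BCL7B libraries and 0.0 to 3.84 points in the 4 BRM libraries. By recovered summit pileup, the median of members lay above that of protein-coding summits in every library. It was 80 to 104 reads in BCL7A and BCL7B libraries, against 70 to 90 reads at protein-coding summits. In BRM libraries it was 63 to 75 reads, against 61 to 73 reads. Rank and pileup thus gave opposite orders for BCL7A and BCL7B, and the reason was not tested. Over the 6 groups the difference was −5.03 ± 5.93 points (SD, n = 6; exact sign-flip permutation p = 0.125) and did not pass the test. Against isolated protein-coding TSSs it was smaller, at −2.40 points (n = 6, exact sign-flip permutation p = 0.0938). Summits of rank 90 or more numbered 53 of 450 and 52 of 445 in BCL7A brm-1 and 40 of 416 and 38 of 400 in BCL7A. In BCL7B brm-1 they numbered 33 of 355 and 36 of 379, and in BCL7B 39 of 391 and 38 of 393. In BRM bcl7ab they numbered 38 of 318 and 37 of 299, and in BRM 20 of 305 and 21 of 297. Among protein-coding summits the shares were 9.48% to 10.1% in BRM bcl7ab and BRM libraries and 11.7% to 12.7% in BCL7A and BCL7B libraries. The counts of rank 90 or more were not tested between groups.

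Occupancy varied with the position of the lncRNA gene. Of the 1261 members away from protein-coding genes and their ends, 20.4% to 26.2% had a summit in BCL7A and BCL7B libraries and 19.4% to 20.5% in BRM libraries. Of the 486 antisense members that start inside a protein-coding gene, 9.88% to 12.8% had a BCL7A or BCL7B summit and 5.35% to 6.17% a BRM summit. Of the 211 members within 500 bp of a protein-coding 3′ end, 21.3% to 28.0% had a BCL7A or BCL7B summit, a range that overlapped that of the distant members, and 9.95% to 13.7% a BRM summit, a range that did not. Of the 107 members with a summit in all 12 libraries, 92 were distant and 7 antisense. Members with 2 or more exons had a summit in 23.6% to 28.0% in BCL7A and BCL7B libraries, against 16.6% to 21.7% of those with 1 exon, while in BRM libraries the values were 15.3% to 16.7% against 14.9% to 15.8%. The 50 members more than 10 kb from a protein-coding TSS had the lowest shares of the distance classes, 4% to 12% for BCL7A and BCL7B and 6% for BRM. Classes were compared as ranges over libraries with no test, as genes are not replicates.

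**Figure D2:**
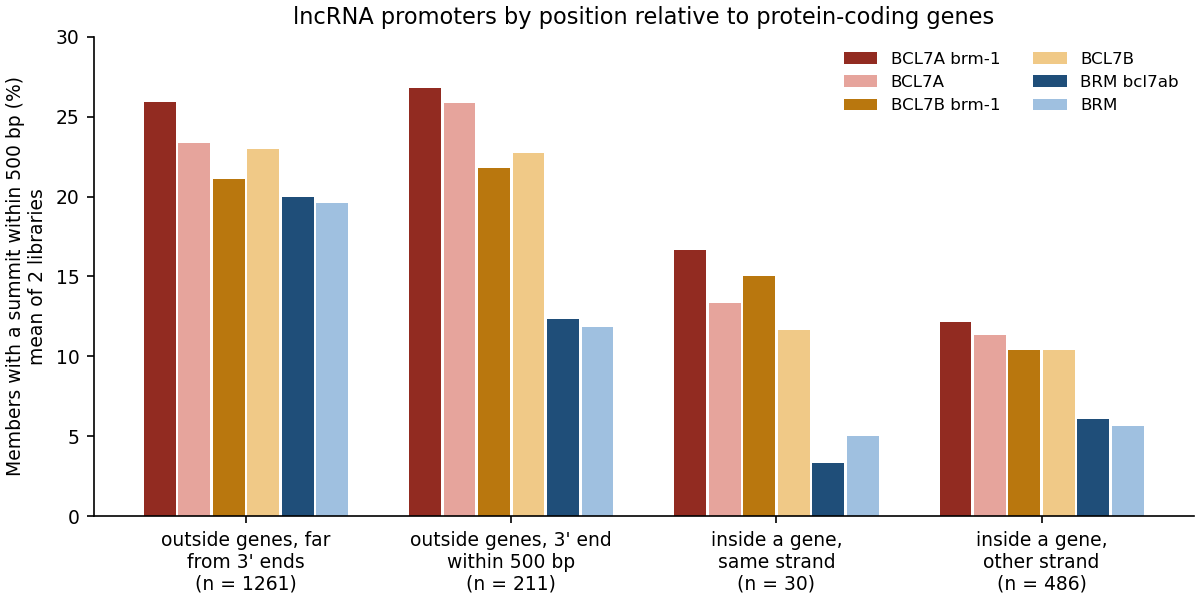
Mean percentage of members with a summit within 500 bp of the TSS (2 libraries per group) for 4 classes of position relative to protein-coding genes, with bars for the 6 groups. The members inside a gene on the other strand (n = 486) lie lowest for BCL7A and BCL7B, and BRM is lower at members near a 3′ end (n = 211) than at distant members (n = 1261).

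Summits of BCL7A and BCL7B lay farther downstream at lncRNA promoters than at protein-coding promoters. At members the median summit of a library was 91.0 to 114.5 bp downstream of the TSS in BCL7A and BCL7B libraries, against 4.00 to 28.0 bp at protein-coding TSSs. In BRM libraries the order was the other way, with medians of 112 to 137 bp at members, against 139 to 181 bp at protein-coding TSSs. At members, 60.7% to 67.8% of summits fell inside the lncRNA gene itself. The TSS of the member was the nearest of any gene for 82.6% to 86.9% of summits. The rule that chose the members, together with the window for summits, left no protein-coding TSS that could be nearer. This share therefore compares members only with genes that are not protein-coding. The separation between BRM and BCL7A seen at protein-coding genes was small at lncRNA genes: where both proteins were bound, the BRM summit lay a median of 7.50 bp downstream of the BCL7A summit at 160 members, against 118.5 bp at 6830 protein-coding genes. The summits of the pair stood within 100 bp of each other at 70.0% of these members, against 35.8% of these protein-coding genes. BCL7B and BCL7A summits stood within 100 bp at 96.1% of 305 members and 92.5% of 10549 protein-coding genes. These are descriptions over genes, and the difference in list processing between BRM and BCL7 proteins applies to both gene sets.

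**Figure D3:**
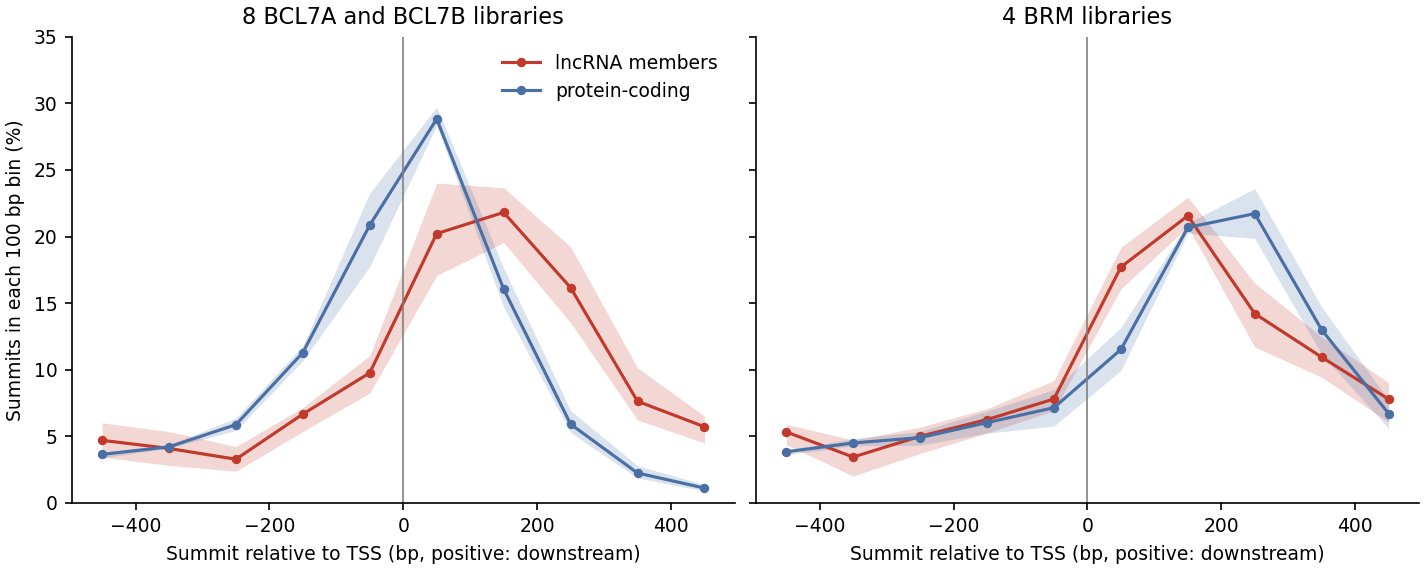
Percentage of summits in bins of 100 bp by distance from the TSS (positive is downstream) for lncRNA members and protein-coding genes, as the mean over libraries (line) with the range (band). In BCL7A and BCL7B libraries the members' curve is shifted downstream (median 91.0 to 114.5 bp, against 4.00 to 28.0 bp), while in BRM libraries the members lie nearer the TSS (median 112 to 137 bp, against 139 to 181 bp).

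The G-box was more frequent under member summits than under the other peaks of the same lists. Within 100 bp of the summit, a G-box stood in 15.6% to 19.1% of the peaks at members in BCL7A and BCL7B libraries, against 10.1% to 11.7% of peaks at protein-coding TSSs and 11.7% to 13.2% of all peaks of the lists. In BRM libraries the shares were 12.9% to 17.2% at members, against 5.65% to 7.10% at protein-coding TSSs and 7.54% to 8.96% of all peaks. Member peaks were above all peaks, and above the other peaks whose summits lay more than 500 bp from every protein-coding TSS (13.9% to 15.6% in BCL7A and BCL7B lists and 10.6% to 11.8% in BRM lists), in all 8 and in all 4 of these libraries. The libraries overlap in the peaks they hold, so the counts of libraries are not independent. The telo box stood in 1.88% to 3.17% of member peaks against 7.44% to 9.66% of protein-coding peaks in BCL7A and BCL7B libraries. The GA repeat stood in 27.7% to 31.9% of member peaks, between protein-coding peaks (36.4% to 39.4%) and the other peaks away from protein-coding TSSs (18.8% to 20.6%).

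In the promoters themselves, taken as 250 bases before to 50 after the TSS, a G-box stood in 32 of 361 members bound in BCL7A (8.86%), in 29 of 1294 members without a summit in any library (2.24%) and in 6.46% of all nuclear promoters of that length. Protein-coding promoters bound in BCL7A held one more often than bound members, in 1372 of 11958 (11.5%). The site II element stood in 46 of the 361 (12.7%) and 65 of the 1294 (5.02%), against 25.4% of protein-coding promoters bound in BCL7A and 4938 of 37899 nuclear promoters. The TATA box stood in 50.1% of the bound members and 39.7% of those without a summit, against 48.8% of all promoters. For these 3 motifs the bound members had a higher share than members without a summit. The GA repeat stood in 25.8% of the bound members and 24.0% of those without a summit, against 28.5% of all promoters. The telo box stood in 2.77% of the bound and 3.56% of those without a summit, against 6.18% of all promoters. Median GC content was 32.3% in the bound members and 34.3% in those without a summit. A match describes letters in a window and not a site in use.

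The 6 most strongly enriched members were chosen by their mean rank over the 12 lists, among those with a summit in all 12, so their high ranks follow from the choice. AT1G05863 (chr1:8598624-8598990, plus strand), 1767 bp from the nearest protein-coding TSS, had fold enrichments of 9.49 and 9.51 in BCL7A brm-1, 10.0 and 9.32 in BCL7A, 7.13 and 7.14 in BCL7B brm-1, 10.6 and 10.6 in BCL7B, 6.36 and 6.58 in BRM bcl7ab and 4.95 and 5.07 in BRM. Its summits fell in its exon, 38 to 83 bp downstream of the TSS, and ranked at 92.0 or above in every list, with ranks of 99.5 and above in the 8 BCL7A and BCL7B lists. AT2G09630 and AT2G09635 (chr2:18725411-18725887) overlap on opposite strands and shared 1 summit, which ranked from 93.0 to 98.2 in the 12 lists and fell in exons of both. Their TSSs lie 1653 and 2093 bp from the TSS of AHL22, which encodes an AT-hook DNA-binding protein. AT5G09170 (chr5:25436917-25437296) had fold enrichments of 5.95 and 6.35 in BCL7A brm-1, 6.58 and 7.30 in BCL7A, 4.66 and 4.79 in BCL7B brm-1, 7.99 and 7.46 in BCL7B, 5.42 and 5.17 in BRM bcl7ab and 4.84 and 3.68 in BRM. AT3G06615 (chr3:15357217-15357805) ranked at 96.3 or above in BCL7A and BCL7B libraries and at 78.6 to 90 in BRM libraries. AT3G09775 (chr3:23116274-23116904) ranked from 85.5 to 98.4. At AT1G05863 and AT5G09170 the BCL7B brm-1 values lay below both BCL7B values, a comparison that also carries the higher background of that group.

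BCL7A and BCL7B shared most of their lncRNA promoters: 305 of the 361 members bound in BCL7A (84.5%) were bound in BCL7B, and 160 (44.3%) in BRM, whose lists were cut at another limit. Of 453 members bound in the BCL7A, BCL7B or BRM groups, 147 (32.5%) were bound by all 3 proteins, against 44.2% of 14467 such protein-coding genes. Another 158 (34.9%) were bound by BCL7A and BCL7B and not by BRM, against 28.7% of protein-coding genes, 53 (11.7%) by BRM alone, 43 by BCL7A alone, 30 by BCL7B alone and 22 by BRM and 1 BCL7 protein. Most of the 158 were not free of BRM: 51 had a summit in 1 BRM library, 81 had a BRM peak over the window with its summit elsewhere, and 26 (16.5%) had no BRM peak in the window, against 38.8% of the 4149 protein-coding genes of this kind. AT5G03755 (chr5:8359836-8360226), 1290 bp from the TSS of the clock gene PRR5, had BCL7A and BCL7B summits of rank 94.2 to 97.7 and BRM bcl7ab summits of rank 89.7 and 89.4. The 2 BRM lists had a peak over its window with the summit at −1375 and −1322 bp from the TSS, where a negative sign is upstream. AT4G06335 (chr4:8985701-8986135), 1348 bp from the TSS of RALFL33, a gene of the RALF peptide family, had BCL7A and BCL7B summits of rank 89.8 to 97.2 within 52 bp of its TSS. All 4 BRM lists placed their summit 1042 to 1125 bp downstream, at ranks of 98.6 to 99.3. AT4G08785 (chr4:16054583-16056611), which starts inside AT4G33300, had its BCL7A and BCL7B summits upstream of the TSS, in an exon of that gene, and BRM summits at −594 and −552 bp.

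The reverse pattern, a summit in all 4 BRM libraries and in no BCL7A or BCL7B library, was found at 13 members (0.654%), against 1.35% of protein-coding genes. Of the 13, 9 (69.2%) had no BCL7 peak in the window, a lower share than the 303 of 371 (81.7%) such protein-coding genes. The BCL7 lists were cut at a stricter limit than those of BRM. The 3 of highest rank were not among those 9. AT2G06605 (chr2:7054057-7054338), 3539 bp from the TSS of KCS9, a fatty acid elongation gene, had BRM fold enrichments of 2.97 and 3.13 in BRM bcl7ab and 3.66 and 3.68 in BRM, with BCL7 summits 692 to 1315 bp downstream of its TSS. AT5G04785 (chr5:10614329-10614623) had 3.12 and 3.01 in BRM bcl7ab and 3.14 and 3.61 in BRM, with BCL7 summits at −620 to −516 bp, and its TSS lies 107 bp from that of another noncoding gene. AT1G08213 (chr1:21616454-21616960) had 2.45 and 2.47 in BRM bcl7ab and 2.47 and 2.47 in BRM, with BCL7 summits 566 to 672 bp downstream. At all 3, BCL7 peaks overlapped the window and only their summits lay outside it.

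Without BRM, BCL7A was retained at 89.2% of its lncRNA promoters, against 12207 of 13564 nuclear genes. The share of members with a summit was 22.51 ± 0.178% in BCL7A brm-1 and 20.5 ± 0.569% in BCL7A (SD, n = 2 each), a difference of 1.99 points in groups that did not overlap (exact permutation p = 0.333, the smallest that 2 against 2 libraries allow). Protein-coding TSSs gave 48.5% in BCL7A brm-1 and 47.7% in BCL7A, and the share of members over that of protein-coding TSSs was 0.464 in BCL7A brm-1 and 0.431 in BCL7A (exact permutation p = 0.333, n = 2 each). With the threshold of fold enrichment at 3 the difference in the member share was 0.528 points, and with lists cut to equal length 1.06 points. Of the 361 members bound in BCL7A, 322 were bound in BCL7A brm-1, 14 (3.88%) had no summit in either BCL7A brm-1 library, which is called lost, and 25 had a summit in 1. Over all nuclear genes 3.66% were lost, close to the share of the members. Of the 398 bound in BCL7A brm-1, 33 (8.29%) were new, without a summit in either BCL7A library, against 4.22% of all nuclear genes and 4.01% of protein-coding genes. Isolated protein-coding genes gave 88.6% retained, 4.38% lost and 4.62% new. The shares depend on the definition: where a summit in either library sufficed, 8.79% of members were lost and 16.5% new. Shares over all nuclear genes were not computed under that definition. The new members were weak, with a median rank of 13.4, against 54.2 for the retained members. New protein-coding genes were weak as well, with a median rank of 20.9, against 62.8 for the retained.

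Most of the lost members still had a BCL7A peak in the brm-1 lists. Of the 14, 11 still had a peak over the window with its summit elsewhere and 3 had none, whereas over all nuclear genes 335 of 497 lost genes had none. Of the 33 new members, 27 had no BCL7A peak in the window, as had 463 of 587 new nuclear genes. AT5G04205 and AT5G04215 (chr5:9165938-9166595), are an overlapping pair on opposite strands. In BCL7A brm-1 a peak with fold enrichments of 3.60 and 3.5 covered the window, with its summit at −897 and −987 bp from the AT5G04205 TSS, while in BCL7A the pair shared a summit in the window with fold enrichments of 3.75 and 4.12. At AT4G07235 (chr4:12501477-12501897) peaks in brm-1 had fold enrichments of 3.47 and 3.19 for BCL7A and 3.55 and 3.42 for BCL7B, with summits 645 to 746 bp downstream of the TSS. Without the mutation they had 3.44 and 3.87 in BCL7A and 3.94 and 4.20 in BCL7B, with summits 235 to 311 bp downstream, and the 4 BRM lists had their summits at 612 to 697 bp. At AT4G07235 a peak was present in all 12 lists. Among the new members, AT4G08415 (chr4:15078288-15078663), 3112 bp from the TSS of LRL2, a root hair bHLH gene, had fold enrichments of 3.15 and 3.31 in BCL7A brm-1 and no BCL7A peak without brm-1. AT1G06403 (chr1:11061425-11061700) had 3.08 and 2.41 in BCL7A brm-1 and no BCL7A peak, although BCL7B had 2.95 and 2.58 there. AT5G09405 (chr5:26228437-26229574), antisense to the bromodomain gene GTE7, had 3.08 and 3.31 in BCL7A brm-1, while both BCL7A lists had a stronger peak (4.84 and 4.98) over the window with its summit 1563 and 1564 bp downstream.

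Without BRM, BCL7B was retained at 77.3% of its lncRNA promoters, close to the 78.3% over all nuclear genes. With fold enrichment of at least 3, 50% of bound members were retained and 35.5% lost. The shares over all nuclear genes were not computed at that threshold, so these values cannot be read as particular to members. The share of members with a summit was 18.5 ± 0.854% in BCL7B brm-1 and 19.7 ± 0.0711% in BCL7B (SD, n = 2 each; exact permutation p = 0.333), a difference of −1.26 points, against −4.61 points for protein-coding TSSs. The lists held 15111 nuclear peaks on average in BCL7B brm-1 and 17570 in BCL7B, and with lists cut to equal length the difference turned to 1.74 points. The share of members over that of protein-coding TSSs was 0.448 in BCL7B brm-1 and 0.430 in BCL7B (exact permutation p = 0.333, n = 2 each), and the ratio of these was 1.04, turning to 0.929 with fold enrichment of at least 3 and to 0.992 with a window of 1000 bp. Of the 344 members bound in BCL7B, 266 were bound in BCL7B brm-1 and 28 (8.14%) were lost, against 10.5% of all nuclear genes and 10.6% of protein-coding genes. Of those 28, 23 had no BCL7B brm-1 peak in the window, as had 1197 of 1357 lost nuclear genes. Of the 309 bound in BCL7B brm-1, 20 (6.47%) were new, against 4.31% of all nuclear genes, and 12 of the 20 had no BCL7B peak in the window, as had 316 of 494 new nuclear genes. Isolated protein-coding genes gave 74.5% retained, 13.1% lost and 4.32% new. Lost and new members were weak, with median ranks of 24.7 and 16.2, against 60.6 for the retained.

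AT5G03985 (chr5:8863042-8864418), antisense to and inside DGR2, was lost for both BCL7 proteins. No peak overlapped its window in the 4 brm-1 lists, while it had fold enrichments of 3.75 and 4.31 in BCL7B and of 2.93 and 2.63 in BCL7A. Its summits lay 252 to 317 bp downstream of the TSS, in an intron of both genes. AT5G06985 (chr5:19219391-19219647), 1384 bp from the TSS of HAT2, an auxin-responsive homeobox gene, had peaks of 3.30 and 2.88 in BCL7B brm-1 with summits at −578 and −517 bp from the TSS, just outside the window, against 4.81 and 5.18 in BCL7B with summits inside it. BCL7A had summits there in brm-1 (3.47 and 3.59) and without it (3.82 and 4.05). Other members without a peak in BCL7B brm-1, chosen after their values were seen, were AT4G20362 (3.89 and 3.88 in BCL7B; antisense to RABE1b) and AT2G08220 (3.65 and 3.44 in BCL7B), and both had BCL7A summits in brm-1 and without it. Of the new members named by rule, AT4G07805 (chr4:13685896-13686488) had summits 485 and 496 bp downstream in BCL7B brm-1 and 535 and 524 bp downstream in BCL7B, a shift across the edge of the window. Its TSS lies 2894 bp from that of AT4G27330, annotated as SPL and distinct from the numbered SPL genes that miR156 targets. AT2G09260 (chr2:17260359-17260594) had 3.34 and 3.51 in BCL7B brm-1, with the BCL7B summits at −1951 and −2099 bp. AT2G09745 (chr2:19163718-19164100) had 2.57 and 2.94 in BCL7B brm-1 and no BCL7B peak in the window, and its TSS lies 83 bp from that of another noncoding gene.

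**Figure D4:**
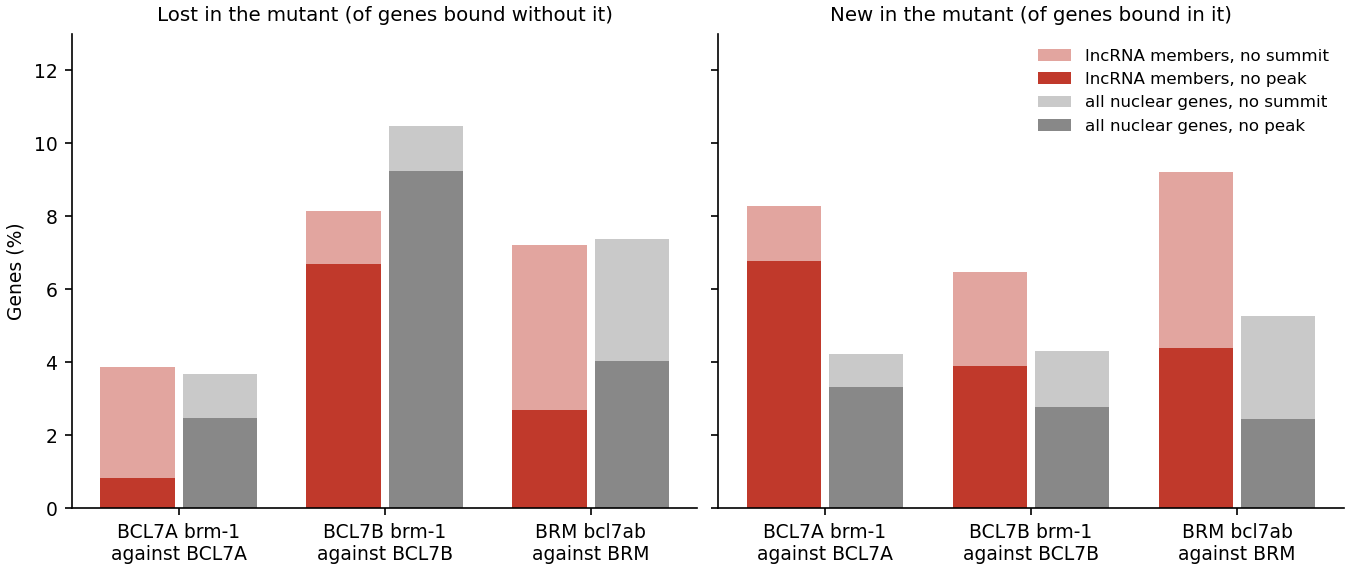
Percentage of bound promoters that were lost (left) or new (right) in each mutant, for lncRNA members and all nuclear genes; the full bar counts promoters without a summit in the other group and its dark part those without any peak in the window. New promoters were 8.29%, 6.47% and 9.21% of members, against 4.22%, 4.31% and 5.28% of all genes, and 0.831% of members bound in BCL7A had no BCL7A brm-1 peak.

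Without BCL7A and BCL7B, BRM was retained at 74.8% of its lncRNA promoters, against 77.6% over all nuclear genes. The share of members with a summit was 15.5 ± 0.676% in BRM bcl7ab and 15.1 ± 0.285% in BRM (SD, n = 2 each), a difference of 0.377 points in groups that overlapped (exact permutation p = 0.667). The direction was not stable: without BRM bcl7ab replicate 1 the difference was −0.101 points, and with a window of 1000 bp it was −0.277 points. Protein-coding TSSs gave 37.2% in BRM bcl7ab and 38.9% in BRM. The share of members over that of protein-coding TSSs was 0.418 in BRM bcl7ab and 0.390 in BRM (exact permutation p = 0.667, n = 2 each), and the ratio of these, 1.07, turned to 0.974 with a window of 200 bp. Of the 222 members bound in BRM, 166 were bound in BRM bcl7ab, 40 had a summit in 1 BRM bcl7ab library and 16 (7.21%) were lost, against 7.38% of all nuclear genes. Of the 228 bound in BRM bcl7ab, 21 (9.21%) were new, against 5.28% of all nuclear genes. Isolated protein-coding genes gave 77.8% retained, 7.37% lost and 4.87% new. No peak of the other group lay in the window of 6 of the 16 lost and 10 of the 21 new members, against 400 of 731 lost and 229 of 497 new nuclear genes. Median ranks were 16.7 for lost, 39.0 for new and 58.9 for retained members. Among protein-coding genes they were 29.6 for lost, 28.2 for new and 60.8 for retained.

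The members named by rule in this contrast had a BRM peak over the window in both groups. AT2G08780 (chr2:15192766-15193609), which starts antisense inside AT2G36220, had BRM fold enrichments of 10.8 and 11.7 in BRM bcl7ab at 383 and 469 bp downstream of the TSS, and 11.9 and 11.5 in BRM at 597 and 588 bp. AT2G45685 (chr2:18820265-18821944), antisense to TCP9, a TCP transcription factor gene, had 8.09 and 8.15 in BRM bcl7ab at 267 and 226 bp, and 7.46 and 8.05 in BRM at 1381 and 1419 bp. AT3G04745 (chr3:8957884-8958491), 1604 bp from the TSS of the receptor kinase gene PERK1, had 6.10 and 6.39 in BRM bcl7ab at 343 and 431 bp, and 5.54 and 5.14 in BRM at −2248 and −2247 bp. All 3 had a peak over the window in both groups and were new by the place of the summit. AT1G05127 (chr1:5131512-5131859) was lost in BRM bcl7ab, where a wide peak of 5.27 and 5.29 covered the window with its summit at −2453 and −2479 bp, while BRM had 3.43 and 3.65 within 87 bp of the TSS. The overlapping AT1G09033 and AT1G09037 had, in BRM bcl7ab, a peak of 6.21 and 5.86 with its summit 3268 and 3255 bp downstream of the AT1G09033 TSS, and summits of 2.44 and 2.85 in BRM. AT3G04665 (chr3:8873589-8873793), chosen after its values were seen, had 2.41 and 2.73 in BRM bcl7ab and no BRM peak in the window without bcl7ab.

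**Figure D5:**
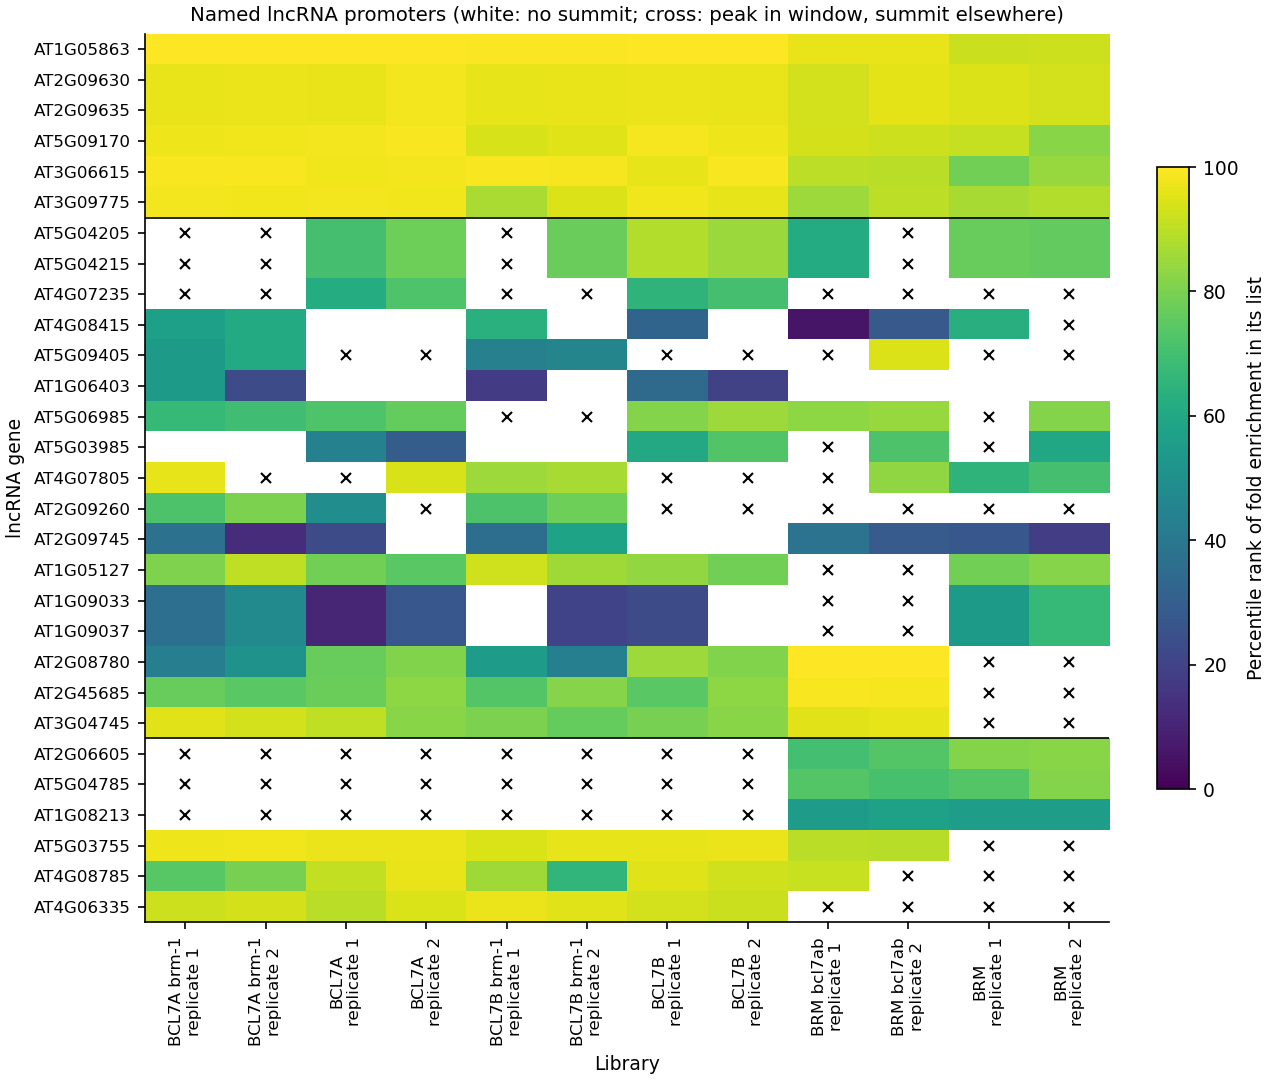
Percentile rank of fold enrichment (colour) of the named lncRNA promoters (down the page) in the 12 libraries (across); white marks no summit within 500 bp and a cross marks a peak over the window with its summit elsewhere. The 6 promoters at the top were chosen for their high mean rank over the 12 libraries, and most white cells under them carry a cross.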

How the data were processed

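ChIP-seq was done by the authors on 12 libraries in 6 groups of 2, and 8 further samples (spike-in ChIP-seq and MNase-seq) were not analysed here. Per the methods of the study, the authors trimmed reads with fastp, mapped them to TAIR10 with Bowtie 2, kept uniquely mapped reads and called peaks by MACS with a q limit of 0.05. The submitters' processing notes name MACS2 2.1.1, 1 list was deposited for each library, and a control library is not given in the sources used here. The deposited lists give, for each peak, a fold enrichment (ratio) at the summit, and the −log10 p-value and −log10 q-value that the authors obtained. The deposited lists hold peaks and not reads, so sequencing depth is unknown; the BRM lists and the others were cut at different limits.

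Genes, TSSs and sequences were read from the TAIR10.1 assembly (RefSeq), on whose 5 nuclear chromosomes every peak end falls inside the chromosome. A gene counted where a summit lay within 500 bp of its TSS, the best ranked summit being used. Lost and new promoters were described by counts beside those over all genes; library shares, relative shares and rank differences were compared with exact permutation tests. Pileup and background were recovered from fold = (t + 1)/(b + 1) and a Poisson tail, and 99.7% to 99.9% of peaks were matched within 0.01 in −log10 p. On simulated lists for 3000 genes, with 200 genes lost and 200 new, all of these were recovered. Every simulated summit lay within 500 bp of its TSS, and both libraries of a group held the same genes. Full recovery was thus fixed by the set-up and checks the code only. How reliable the lost and new calls are in the deposited lists was not tested. Named members were the 6 with the highest mean rank among those with summits in all 12 lists, the 3 strongest lost and 3 strongest new of each contrast, and the 3 strongest with BRM and no BCL7 summits and with BCL7A and BCL7B and no BRM summits; no member had a symbol. The members, lists and rules were chosen with earlier results of these data known. The labels number the libraries of a group IP1 and IP2 and do not say whether they came from separate cultures, so that p-values measure only the spread between them. Alternatives were other windows, thresholds, equal list lengths, other member sets, an isolated protein-coding set, a replicate block and leaving out each library. Python 3.11.15, NumPy 2.4.6, pandas 2.3.3, SciPy 1.17.1 and matplotlib 3.10.9 were used.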

Additional observations from a re-analysis of the deposited data

Results flagged for a closer look

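The change in the share of members with a summit in brm-1 had opposite signs for the BCL7 proteins: it was 1.99 points for BCL7A (22.51% in BCL7A brm-1 and 20.5% in BCL7A) and −1.26 points for BCL7B (18.5% in BCL7B brm-1 and 19.7% in BCL7B), a difference of 3.24 points. Permuting the libraries within each protein gave an exact permutation p of 0.0556 over 36 arrangements, the smallest they allow, so that it cannot pass 0.05. The libraries with and without brm-1 did not overlap for either protein. Protein-coding TSSs differed by 5.45 points (exact permutation p = 0.0556). For the share of members relative to that of protein-coding TSSs, the difference was 0.0159 (exact permutation p = 0.556). BCL7B brm-1 lists were also shorter than BCL7B lists, and with lists of equal length the BCL7B change turned to 1.74 points.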

How the results depend on the processing

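Each of 20 results was recomputed under other settings, which gave 328 values: 270 were labelled the same, 13 reversed and 45 moved. For changes in share, relative share and rank under another setting, this label checked the direction only and set no limit on size. The BRM rank change of 0.818 points was labelled the same at 9.28 (−log10 q of at least 5) and at 17.0 (fold enrichment of at least 3). The lower share of members than of protein-coding TSSs ranged from −23.4 to −13.1 points over the settings that keep all libraries, with an exact permutation p of 0.0312 in each. The rank difference over the 6 groups reversed to 2.42 when a peak had to cover the TSS.

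For BCL7B, the change in share reversed to 1.74 points with equal list lengths, the relative share to 0.992 with a window of 1000 bp and 0.929 with fold enrichment of at least 3, and the rank change to 4.11 at that threshold. For BRM, the change in share reversed to −0.277 (window of 1000 bp) and −0.467 (no protein-coding TSS within 2 kb), the relative share to 0.974 (window of 200 bp) and the rank change to −2.12 (window of 200 bp), −2.27 (2 kb) and −1.24 (TSS outside protein-coding genes). The cause was not tested.

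For lost and new members, a summit in either library gave lost shares of 8.79% (BCL7A), 16.8% (BCL7B) and 24.5% (BRM) and new shares of 16.5%, 13.9% and 26.2% in that order. Counting only members without any peak, chosen after seeing the data, gave 0.831% lost for BCL7A, 3.88% new for BCL7B, and 2.70% lost and 4.39% new for BRM. Fold enrichment of at least 3 gave 50% retained, 35.5% lost and 2.59% new for BCL7B and 20.2% new for BRM. A window of 200 bp gave 6.22% lost for BCL7A, and 11.8% lost and 19.3% new for BRM. A peak covering the TSS gave 3.52% new for BCL7B, and 2.76% lost and 4.87% new for BRM. Isolation by 2 kb gave 2.15% lost for BCL7A and 4.96% new for BRM, and equal list lengths 15.6% new for BCL7B. Except for the count without any peak, these shares were computed for members only, so none over all genes stands beside them.

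Leaving out 1 library in turn gave share changes of 1.58 to 2.39 (BCL7A), −1.86 to −0.654 (BCL7B) and −0.101 to 0.855 points (BRM), and rank changes of −1.10 to 2.74 for BRM. Lost shares were 6.25% to 7.48%, 12.5% to 17.7% and 14.4% to 18.2%, and new shares 12.4% to 14.8%, 9.71% to 11.3% and 16.4% to 23.3%, for BCL7A, BCL7B and BRM in that order. A single library then stands for its group, which loosens the definition in every such case. Lost and new shares over all genes were not computed with a library left out.

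With replicate number as a replicate block, the BCL7A share change was 1.99 points with p = 0.500 by exact permutation, the smallest that 2 pairs allow, and no call changed. Replicate differences of the 2 groups of a contrast were nearly uncorrelated over all nuclear genes bound in both (−0.0028, −0.0144 and 0.0124). Over members the correlations were −0.0317, −0.0794 and −0.1008. Such correlations cannot show a shift common to a whole list. Whether same-numbered libraries shared a culture or batch is therefore not known. The lists hold peaks and not reads, so weak binding under the peak limit was not seen.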

Other observations

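Further new members with no peak in the window of the other group, chosen after their values were seen, were AT4G06910 (2.16 and 3.22 in BCL7A brm-1; 3534 bp from the TSS of the iron transporter gene IRT1), AT2G09125 (2.43 and 2.41 in BCL7B brm-1; 3304 bp from the TSS of ABI4, an abscisic acid signalling gene) and AT4G04221 (1.92 and 2.22 in BRM bcl7ab). BCL7A was present at AT2G09125 with fold enrichments of 3.07 and 3.05 in BCL7A brm-1 and 1.90 and 2.21 in BCL7A. AT1G04957, lost in BRM bcl7ab, had fold enrichments of 1.99 and 1.84 in BRM and no peak in the other 10 lists.

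In BCL7A and BCL7B libraries, 20.6% to 27.7% of the 393 members of chromosome 5 had a summit, against 16.05% to 18.5% of the 405 members of chromosome 3, and in BRM libraries 18.3% to 21.4% against 11.1% to 14.1%. The ranges did not overlap, and the comparison was not tested. These chromosomes were taken from 5, and shares of all genes or of protein-coding genes by chromosome were not computed. The difference therefore cannot be read as particular to lncRNA promoters.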
